A study of Mus musculus with 10 samples.

Results

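The genes described here are the 9 mouse fatty acid binding protein genes Fabp1, Fabp2, Fabp3, Fabp4, Fabp5, Fabp6, Fabp7, Fabp9 and Fabp12, out of 22180 genes measured by expression array. A member was taken from probe sets annotated with its symbol alone, and among several the brightest was kept, selected on its mean of the 10 arrays together. The levels of the members are therefore given as a description. All 9 members had at least 1 such probe set. Sorted lung epithelial cells of mice at postnatal day 4, labelled as type 2 alveolar epithelial cells (AEC2s, the surfactant-making cells of the alveolus), were sorted from 2 populations, with 5 samples in each. The SP-C+ cells were taken from SftpcCreERT2-R26REYFP mice, in which a tamoxifen-dependent Cre under the surfactant protein C gene switches on YFP, and were collected after 24 h of tracing. Axin2+ cells came from Axin2CreERT2-TdTomato mice, in which the Cre is driven by Axin2, a Wnt target gene, and were gated on TdTomato and EpCAM without CD31 or CD45, with no AEC2 marker named. All mice had a mixed background of C57BL/6, 129S6 and CD-1. The labels name no treatment, although the CreERT2 of both lines depends on tamoxifen. A note shared by all samples speaks of day 3 and adult cells, while titles and age labels give day 4. Axin2 itself, the gene that drives the Cre of the Axin2+ group, went against the label: it measured 8.38 to 8.53 in SP-C+ and 7.82 to 8.12 in Axin2+ arrays, without overlap (-0.53 ± 0.08 SE, limma, adjusted p = 3.28e-04). Axin2+ and SP-C+ therefore stand throughout for the groups as labelled, and every direction below rests on those labels. The reporter line and the gate differ between the groups together with the cell label, so their effects cannot be told apart. No label says whether the samples of a group are separate animals, so the p-values measure the spread between these samples, which may be technical.

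Fatty acid binding proteins are small cytosolic carriers with a barrel-shaped pocket that holds a long-chain fatty acid or a related lipid. They move fatty acids from the plasma membrane to the endoplasmic reticulum, mitochondria, lipid droplets and nucleus, where some of them hand ligands to the PPAR nuclear receptors. AEC2s use large amounts of fatty acid to build surfactant phospholipids. Several of the genes, with the myelin gene Pmp2, lie side by side on mouse chromosome 3, while the rest are scattered.

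The members at the chromosome 3 cluster were lower in Axin2+ cells, and those elsewhere did not pass the test. Fabp12, Fabp4, Fabp9 and Fabp5 fell by 1.31, 1.09, 0.86 and 0.45 on the log2 scale, or 2.48-fold, 2.13-fold, 1.81-fold and 1.37-fold. Of the 9 members 4 were called lower and 0 higher, at a Benjamini-Hochberg adjusted p under 0.05 in limma over all genes. Over all genes 8.95% were called lower, 8.61% higher and 17.6% in either direction. The median difference of the members was -0.31, against -0.04 over all 22180 genes. Every member had a negative difference, as did 60.1% of all genes, and the direction of Fabp7, whose difference was near 0, turned under some settings.

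**Figure D1:**
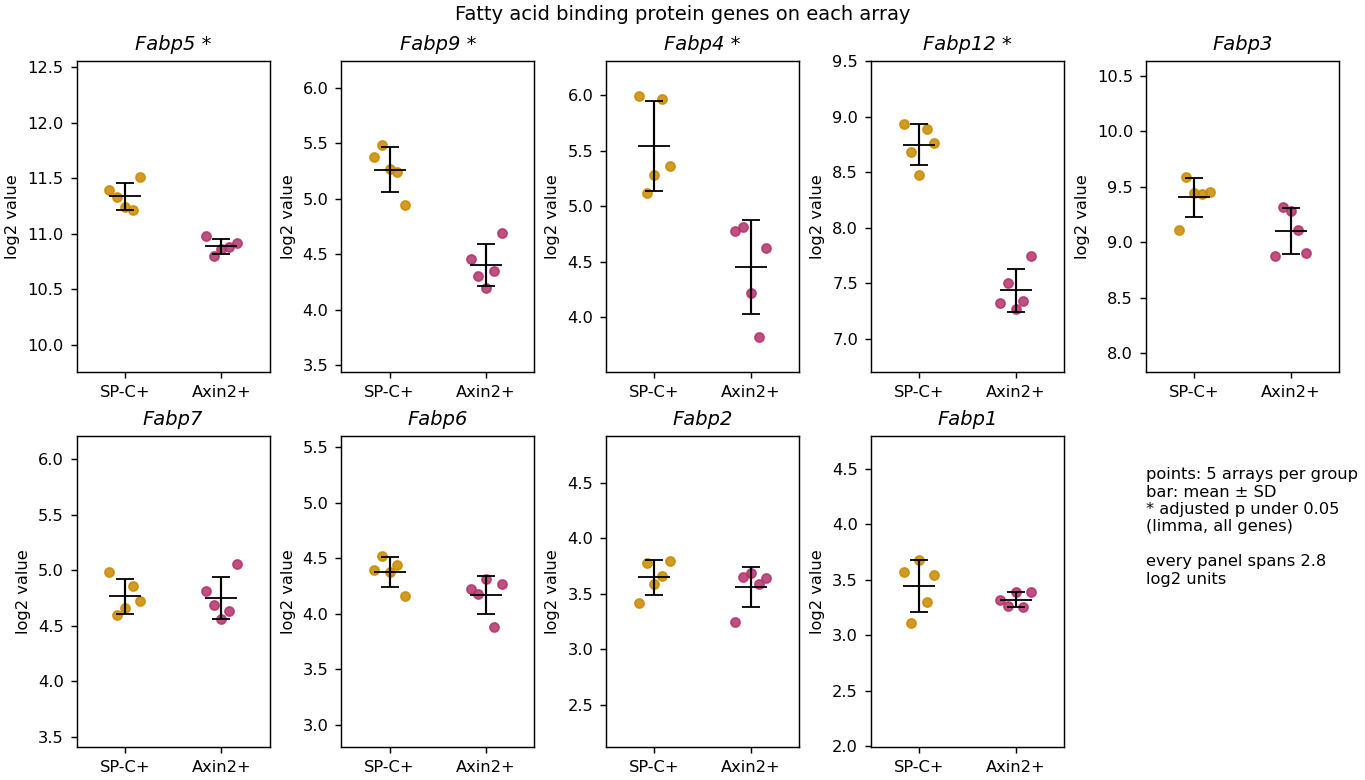
Log2 value of each fatty acid binding protein gene on each array, with 5 arrays per group as points and the mean ± SD as bars. Each panel covers the same span on its own vertical range. In Fabp5, Fabp9, Fabp4 and Fabp12 no Axin2+ array reaches the lowest SP-C+ array, and in the other panels the groups overlap.

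Fabp5, the epidermal-type carrier that is also made by lung epithelium and macrophages, measured 11.40, 11.33, 11.24, 11.21 and 11.51 in SP-C+ arrays 1 to 5. In Axin2+ arrays 1 to 5 it measured 10.98, 10.80, 10.86, 10.88 and 10.92. All Axin2+ arrays were below all SP-C+ arrays, and both groups lay far above the array medians of all genes, which ran from 6.27 to 6.43. Its means were 11.34 ± 0.12 (SD, n = 5) for SP-C+ and 10.89 ± 0.07 for Axin2+, so Fabp5 differed by -0.45 ± 0.08 SE (limma, adjusted p = 0.00131).

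Fabp5 had 4 probe sets, and all of them were lower in Axin2+ arrays. The probe set used, 17548238, and probe set 17548717 differed by no more than 0.08 on any array, so they may read much the same sequence. Probe set 17396056 differed by -0.53 (SE 0.08) and probe set 17404073 by -0.65 (SE 0.18). Fitted over all probe sets, the adjusted p-values of the 4 were 0.00386, 0.00459, 0.00199 and 0.0448 in limma. Probe set 17404073 varied most, and its groups overlapped. Processed copies of Fabp5 exist in the mouse genome (RefSeq lists the pseudogene Fabp5l2), and their part in these signals was not tested.

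**Figure D2:**
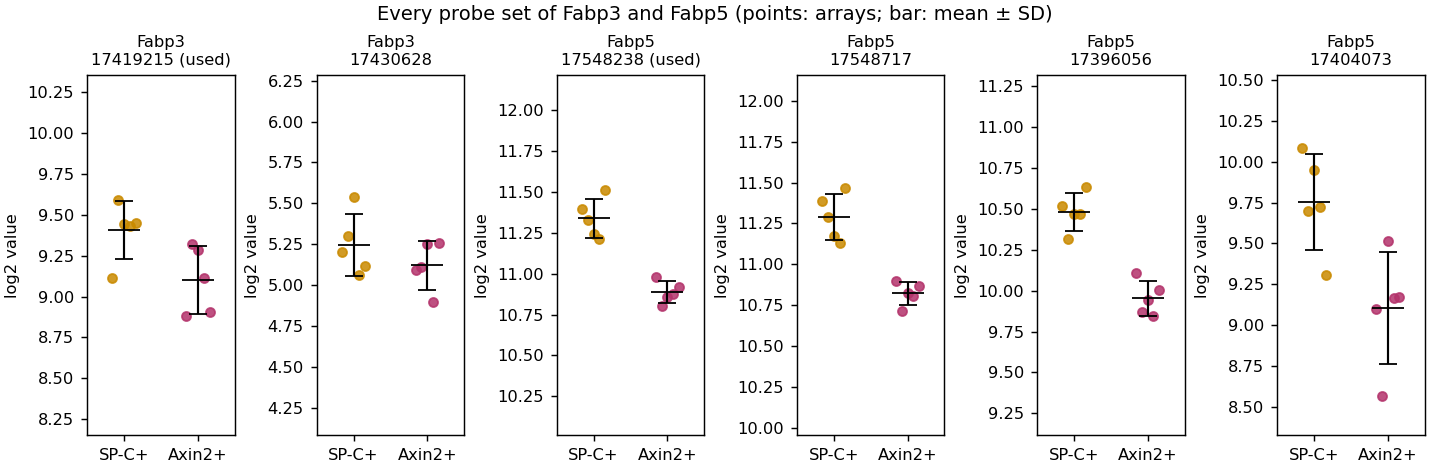
Log2 values of every probe set annotated with Fabp3 or Fabp5 alone, by array, with the mean ± SD of 5 arrays per group. The 4 Fabp5 probe sets and both Fabp3 probe sets have a lower mean in Axin2+ arrays. The groups overlap in Fabp5 probe set 17404073 and in both Fabp3 probe sets.

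Fabp12 encodes a less studied member of the family, described mainly from testis and retina. It measured 8.94, 8.68, 8.48, 8.89 and 8.76 in SP-C+ arrays 1 to 5, and 7.32, 7.50, 7.27, 7.34 and 7.75 in Axin2+ arrays 1 to 5. A gap of 0.73 separated the lowest SP-C+ array from the highest Axin2+ array, the widest gap of any member. Fabp12 averaged 8.75 ± 0.18 (SD, n = 5) and 7.44 ± 0.19, both above the array medians of all genes, and differed by -1.31 ± 0.11 SE (limma, adjusted p = 2.94e-06).

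Fabp9, a gene of the sperm head, lay below the array median of all genes. SP-C+ arrays 1 to 5 gave 5.38, 5.48, 5.27, 5.24 and 4.94, and Axin2+ arrays 1 to 5 gave 4.46, 4.31, 4.20, 4.35 and 4.69. SP-C+ array 5 was the lowest of its group and Axin2+ array 5 the highest of the other, and the groups still did not overlap. Fabp9 differed by -0.86 ± 0.12 SE (limma, adjusted p = 1.81e-04).

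Fabp4 is the adipocyte carrier, also known from macrophages and capillary endothelium. It spread most within both groups, with 5.99, 5.12, 5.28, 5.96 and 5.36 in SP-C+ arrays 1 to 5 and 4.78, 4.82, 4.22, 3.82 and 4.62 in Axin2+ arrays 1 to 5. SP-C+ arrays 1 and 4 were high and Axin2+ arrays 3 and 4 low, and the groups did not overlap. Fabp4 differed by -1.09 ± 0.22 SE (limma, adjusted p = 0.00363). Background signal can make up part of values this low, so the size of a change in Fabp4 or Fabp9 RNA is uncertain. Without a detection call, it cannot be said whether Axin2+ cells expressed them.

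An exact two-sided permutation test over the 252 assignments of the arrays gave p = 0.00794 for each of Fabp4, Fabp5, Fabp9 and Fabp12, the smallest value that 5 against 5 arrays allow. The groups did not overlap in these 4 members, as in 15.0% of all genes, or 7.66% counting those lower in Axin2+ arrays.

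Fabp4 is also made by endothelium, macrophages and adipocytes, so the markers of those cells are given beside it. The mean of 12 endothelial markers was 7.60 in SP-C+ array 1, 6.50 in SP-C+ array 4 and 6.49 to 7.02 in the other SP-C+ arrays, against 6.61 to 6.84 in Axin2+ arrays, and 0 of the 12 passed the test. Pecam1, an adhesion protein of endothelium, measured 8.11 in SP-C+ array 1 and 6.47 in SP-C+ array 4, while Fabp4 was 5.99 and 5.96 there. Without SP-C+ replicate 1 Fabp4 was at -0.98 (adjusted p = 0.00965 in limma). The part of endothelial cells in the difference of Fabp4 was not tested. Of 12 macrophage and leukocyte markers 1 was higher and 2 were lower. Their mean was 6.22, 5.86, 5.91, 6.13 and 6.08 in SP-C+ arrays 1 to 5, which ranks these arrays as Fabp4 does. In Axin2+ arrays 1 to 5 their mean was 6.09, 6.01, 5.99, 6.02 and 6.06, which ranks the arrays otherwise than Fabp4. Ptprc, the pan-leukocyte gene, was at 4.24 and 3.94 on average, and Adgre1, a macrophage gene, at 4.82 and 4.56 (adjusted p = 0.0468), and Adgre1 did not pass in 8 of 10 leave-one-out fits. Adiponectin (Adipoq), the defining adipocyte gene, was at 4.30 and 4.23, and 1 of 8 adipocyte markers was lower, the lipase gene Lipe. Of 12 mesenchymal markers 1 was lower, with Col1a1 at 7.12 and 6.91. The mesenchymal mean was 6.57, 5.97, 6.11, 6.21 and 5.97 in SP-C+ arrays 1 to 5, highest in arrays 1 and 4, as was Fabp4. In Axin2+ arrays it was 6.02 to 6.26. The part of macrophages and mesenchymal cells in the difference of Fabp4 was not tested.

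Other epithelial markers moved in the same arrays as the members. All 12 markers of type 1 alveolar cells (AEC1s) were higher in Axin2+ arrays, with list means of 8.99 to 9.44 in SP-C+ and 11.43 to 11.81 in Axin2+ arrays. Of 10 ciliated cell markers 9 were higher (5.95 to 6.19 against 8.56 to 8.78), and of 8 club cell markers 7 (7.76 to 8.28 against 9.37 to 9.88). The 12 AEC2 markers stayed bright, with list means of 13.07 to 13.13 in SP-C+ and 12.86 to 12.98 in Axin2+ arrays. Of these markers 2 were lower, and Sftpc did not pass (0.10 ± 0.06 SE, adjusted p = 0.324 in limma). Sftpc was the brightest of all genes, at 13.97 to 14.05 in SP-C+ and 14.08 to 14.15 in Axin2+ arrays, without overlap. Whether the array still resolves differences at this level was not tested. The part of these cell types in the differences of the members was not tested. In RNA from pooled cells, fewer cells of a type and less RNA per cell cannot be told apart.

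The order of the genes along chromosome 3 was taken from RefSeq (GRCm38.p6). Among measured protein-coding genes, Fabp5, Pmp2, Fabp9, Fabp4 and Fabp12 follow each other with no other measured protein-coding gene between them. Pmp2, the myelin P2 carrier, measured 4.70, 4.64, 4.89, 4.41 and 4.41 in SP-C+ arrays 1 to 5 and 4.41, 4.01, 3.98, 3.68 and 4.35 in Axin2+ arrays 1 to 5. It fell by 0.52 (SE 0.14, adjusted p = 0.0225 in limma), with a slight overlap between Axin2+ array 1 and SP-C+ array 5, and lost its call without SP-C+ replicate 3, Axin2+ replicate 2, Axin2+ replicate 3 or Axin2+ replicate 4 (adjusted p = 0.0503 to 0.0584) and with only SP-C+ arrays 4 and 5 (adjusted p = 0.308). All 5 family genes of the cluster were thus called lower, with a median difference of -0.86. These genes are relatives and probe sequences were not at hand, so signal shared between their probe sets was not tested. The 5 members outside the cluster had a median of -0.12 and 0 calls. Among them Fabp1, Fabp2, Fabp6 and Fabp7 were dim in both groups, so a fall could go unseen there. This split was noticed after the values were seen and was not tested as such.

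Adjacent genes of the cluster were compared in chromosome order, and no step between neighbours passed the test after adjustment. The change of Pmp2 exceeded that of Fabp5 by 0.07, that of Fabp9 exceeded Pmp2 by 0.34, Fabp4 exceeded Fabp9 by 0.23 and Fabp12 exceeded Fabp4 by 0.22. Exact two-sided permutation tests of these 4 within-array differences gave p = 0.714, 0.0397, 0.405 and 0.333, and 0.159 or more after adjustment over the 4 pairs. The order of Fabp5 and Pmp2 turned without Axin2+ replicate 4 (-0.45 and -0.42) and with only SP-C+ arrays 4 and 5 (-0.48 and -0.32), and 2 other Fabp5 probe sets differed by more than Pmp2. Pmp2, Fabp9 and Fabp4 were dim, so the size of their differences is less certain.

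Of the 5 measured protein-coding genes on each side of the cluster, 2 of 10 were called lower against 8.95% of all genes, and 9 of 10 had a negative difference against 60.1% of all genes. The called ones were the transcription factor gene Zbtb10 (-0.50 ± 0.16 SE, adjusted p = 0.0497 in limma) and Snx16, which encodes a sorting nexin (-0.31 ± 0.08, adjusted p = 0.0217). In all 10 the groups overlapped. Their differences ran from -0.50 to 0.06 with a median of -0.20. The number called was 0 without Axin2+ replicate 3 or Axin2+ replicate 5. It was 1 in 6 other fits without 1 array (SP-C+ replicate 1, 2, 3 or 5, Axin2+ replicate 1 or Axin2+ replicate 2). It was 4 with only SP-C+ arrays 4 and 5 and 6 after median centring, all of them lower. Over all genes these 2 fits called 1335 and 4412 lower, against 1985 with all arrays and no centring. Both of the genes next to the cluster, Pag1 on 1 side (-0.42 ± 0.15, adjusted p = 0.0838) and Impa1 on the other (-0.16 ± 0.11, adjusted p = 0.392), did not pass.

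**Figure D3:**
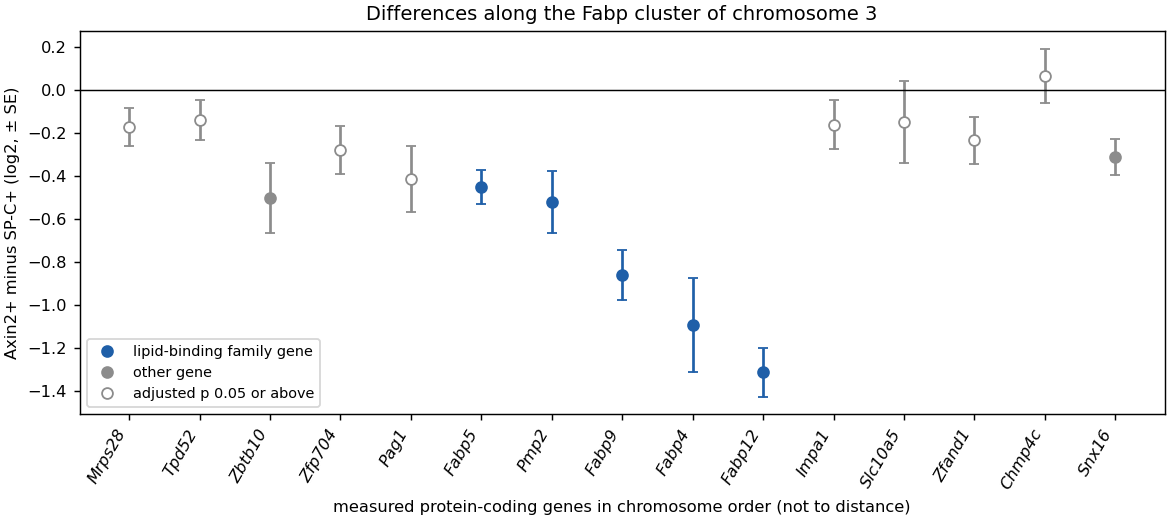
Axin2+ minus SP-C+ differences (log2, with SE, n = 5 per group) of measured protein-coding genes in RefSeq order along chromosome 3, drawn at even spacing. The 5 family genes lie between -0.45 and -1.31 and the 10 genes beside them between -0.50 and 0.06; filled points passed the test.

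Fabp3, the heart and muscle carrier, was the other bright member. It measured 9.11, 9.59, 9.45, 9.43 and 9.45 in SP-C+ arrays 1 to 5 and 8.88, 9.32, 9.29, 9.11 and 8.90 in Axin2+ arrays 1 to 5. SP-C+ array 1 was low and fell among the Axin2+ arrays. The difference was -0.31 ± 0.11 SE with a 95% interval of -0.55 to -0.06, and it did not pass over all genes (adjusted p = 0.0874 in limma). It passed without SP-C+ replicate 1 (-0.38, adjusted p = 0.0301) and after median centring. The second Fabp3 probe set, 17430628, was dim in both groups (5.24 and 5.12) and differed by -0.12 ± 0.11.

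Fabp1, Fabp2, Fabp6 and Fabp7 were dim in both groups, with every array between 3.11 and 5.05, below the array medians of all genes. Fabp1, the liver carrier, averaged 3.44 and 3.32 in SP-C+ and Axin2+ arrays, a difference of -0.12 with a 95% interval of -0.35 to 0.11. Fabp2, the intestinal carrier, averaged 3.65 and 3.56 (-0.08, interval -0.31 to 0.14). With 1 array left out Fabp1 ran from -0.20 (without SP-C+ replicate 2) to -0.06 (without SP-C+ replicate 3), and Fabp2 from -0.14 (without SP-C+ replicate 1) to -0.0043 (without Axin2+ replicate 1). Fabp6, the bile acid carrier of the ileum, averaged 4.38 and 4.17 (-0.21, interval -0.42 to 0.01), and Axin2+ array 4 was its lowest at 3.88; without that array it was at -0.13. It passed after median centring. Fabp7, the carrier of radial glia, averaged 4.76 and 4.75 (-0.02, interval -0.25 to 0.22). The adjusted p-values of these 4 were 0.186 to 0.947 in limma. The table gives no detection call, so it cannot be said whether these genes were expressed.

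RefSeq promoter sequence was matched for 5 of the 9 members, Fabp1, Fabp2, Fabp3, Fabp6 and Fabp7. The members called lower, Fabp4, Fabp5, Fabp9 and Fabp12, had no match, so the promoters here describe no called member. The 100 bases before the start of Fabp3, the bright member among them, and of Fabp1, a dim one, are shown because the PPAR receptors to which these proteins deliver ligands bind DNA at the half-site AGGTCA, which reads as TGACCT on the other strand, and Fabp1 is a textbook PPAR target. Half-sites on either strand are in capitals. The windows are GRCm38.p6 chr4:130308638-130308737, plus strand, and chr6:71199779-71199878, plus strand.
Fabp3: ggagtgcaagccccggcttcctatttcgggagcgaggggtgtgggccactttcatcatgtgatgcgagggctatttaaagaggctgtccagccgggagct
Fabp1: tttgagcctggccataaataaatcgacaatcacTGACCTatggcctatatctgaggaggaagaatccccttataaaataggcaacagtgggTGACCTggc

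In the 250 bases before the start, Fabp1 held 2 half-sites, Fabp7 held 1 and Fabp2, Fabp3 and Fabp6 held 0, while 14.02% of all 32851 promoters of that length held at least 1. The exact direct repeat AGGTCANAGGTCA, searched on both strands, was in none of the 5 and in 0.0335% of all promoters, and it contains the half-site. Only exact copies were counted, so a repeat with a changed base was missed. In Fabp1 the first half-site shown is followed, after 1 base, by tggcct, which differs from TGACCT by 1 base. A match is a string of letters and not a bound site. Fabp3 had 17 CG pairs and 64.8% G and C in this window, against 2 CG pairs and 42.8% for Fabp1, 1 and 35.6% for Fabp2, 2 and 54.8% for Fabp6, and 4 and 54.8% for Fabp7. The medians over all promoters were 6 CG pairs and 52.4%.

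Other genes of fatty acid handling were grouped in lists by their known roles. Some genes were in more than 1 list, so the counts of the lists are not separate results. Against 17.6% of all genes, the share called in either direction was 40% of the other lipid-binding family genes, 37.5% of activation, 30% of PPAR receptor and cofactor, 27.3% of uptake, 15.4% of PPAR target and 13.6% of oxidation genes. A fit of only the genes above the 50th percentile of level called 3782, against 3894 in the fit of all genes. The share called was thus higher among bright genes. In SP-C+ arrays 12 of 16 activation, 9 of 10 PPAR receptor and cofactor and 7 of 11 uptake genes were above the array median. So were 9 of 13 PPAR target, 22 of 22 oxidation and 1 of 5 other lipid-binding family genes. For the lists of mostly bright genes 17.6% is therefore a low standard. Among the other genes of the lipid-binding family, 1 of 5 was higher and 1 lower (Pmp2). The higher gene was Rbp2, a cellular retinol carrier known from intestine, at 0.61 ± 0.13 SE (adjusted p = 0.00661 in limma). It measured 4.77 to 4.95 in SP-C+ and 5.09 to 5.95 in Axin2+ arrays, without overlap. Averaged over its probe sets it was at 0.32 (adjusted p = 0.0280).

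Fatty acid uptake genes held 3 lower and 0 higher of 11, with a list median of -0.24. Mfsd2a, a transporter of lysophosphatidylcholine that carries omega-3 fatty acids, measured 9.25, 10.48, 9.85, 8.92 and 7.66 in SP-C+ arrays 1 to 5 and 7.60, 7.39, 7.69, 7.56 and 7.87 in Axin2+ arrays 1 to 5. SP-C+ array 5 lay within the range of the Axin2+ arrays. The difference of -1.61 ± 0.39 SE (adjusted p = 0.0120 in limma) was -0.67 and did not pass with only SP-C+ arrays 4 and 5 against all Axin2+ arrays (adjusted p = 0.163), and -2.24 with only SP-C+ arrays 1, 2 and 3. Vldlr, a lipoprotein receptor, was at 9.76 to 10.10 in SP-C+ and 9.12 to 9.31 in Axin2+ arrays (-0.71 ± 0.09, adjusted p = 7.09e-05). The fatty acid translocase Cd36 was the other lower gene (-0.31 ± 0.07, adjusted p = 0.0107).

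Genes that activate fatty acids or hold acyl-CoA had 6 lower and 0 higher of 16 (median -0.16). The acyl-CoA thioesterase genes Acot1 and Acot7 fell by 0.49 (SE 0.11) and 0.45 (SE 0.08), with adjusted p-values of 0.00654 and 0.00115 in limma. Fatty acid oxidation genes had 2 lower and 1 higher of 22 (median -0.07). The lower ones were Eci2 and Echs1, an isomerase and a hydratase of the pathway (-0.44 ± 0.08 and -0.33 ± 0.09), and the higher one was Cpt1c, a carnitine palmitoyltransferase known from neurons (0.42 ± 0.10). Echs1 lost its call without SP-C+ replicate 2, Axin2+ replicate 2 or Axin2+ replicate 3 (adjusted p = 0.0539 to 0.0573).

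Of the PPAR receptors and cofactors 3 of 10 were lower and 0 higher (median -0.19). Pparg, the receptor that drives Fabp4 in adipocytes, measured 9.04, 8.19, 8.32, 7.85 and 7.95 in SP-C+ arrays 1 to 5. In Axin2+ arrays 1 to 5 it measured 7.19, 7.22, 7.21, 7.20 and 7.41, below every SP-C+ array and far less spread. The difference was -1.03 ± 0.18 SE (adjusted p = 0.00161 in limma). With only SP-C+ arrays 4 and 5 it was -0.65, and it still passed. Ppargc1a, a coactivator gene, fell by 0.47 (SE 0.11, adjusted p = 0.00832). Of 13 PPAR target genes outside the family 2 were lower and 0 higher (median -0.10): Cd36 and Plin2, a coat protein of lipid droplets (-0.52 ± 0.11, adjusted p = 0.00686 in limma). Both were counted in another list as well, Cd36 in uptake and Plin2 in lipid droplets. With only SP-C+ arrays 4 and 5 the counts were 1 of 10 receptors and cofactors and 0 of 13 targets. That fit has fewer SP-C+ arrays and called 2839 genes over all, against 3894 with all arrays. Ppargc1a, Plin2 and Cd36 had adjusted p-values of 0.106, 0.130 and 0.0557 there in limma. Rbp2, Cpt1c and Echs1 also lost their calls in that fit (adjusted p = 0.0594, 0.147 and 0.276 in limma). The differences of Ppargc1a, Plin2, Cpt1c and Echs1 were smaller there, at -0.37, -0.35, 0.28 and -0.15. Those of Rbp2 (0.67) and Cd36 (-0.33) were no smaller than with all arrays.

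Lipid droplet and lipolysis genes held the most calls, with 9 lower and 1 higher of 18 (median -0.26). The share called was 55.6%, against 17.6% of all genes, and 12 of the 18 were above the array median in SP-C+ arrays. Dgat2, which makes triglyceride from diacylglycerol, was at 8.87 to 9.36 in SP-C+ and 7.62 to 8.08 in Axin2+ arrays (-1.26 ± 0.11 SE, adjusted p = 2.39e-06 in limma). Fitm2, a droplet assembly gene, fell by 0.77 (SE 0.09, adjusted p = 5.06e-05). Plin5, another droplet coat gene, was the higher one at 0.24 ± 0.07 (adjusted p = 0.0464), and it did not pass in 8 of the 10 fits without 1 array. Named after their values were seen, Pnpla2, the main triglyceride lipase, and Abhd5, its activator, fell by 0.76 and 0.57. With only SP-C+ arrays 4 and 5 the list had 5 lower and 0 higher, in a fit that called 2839 genes over all.

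**Figure D4:**
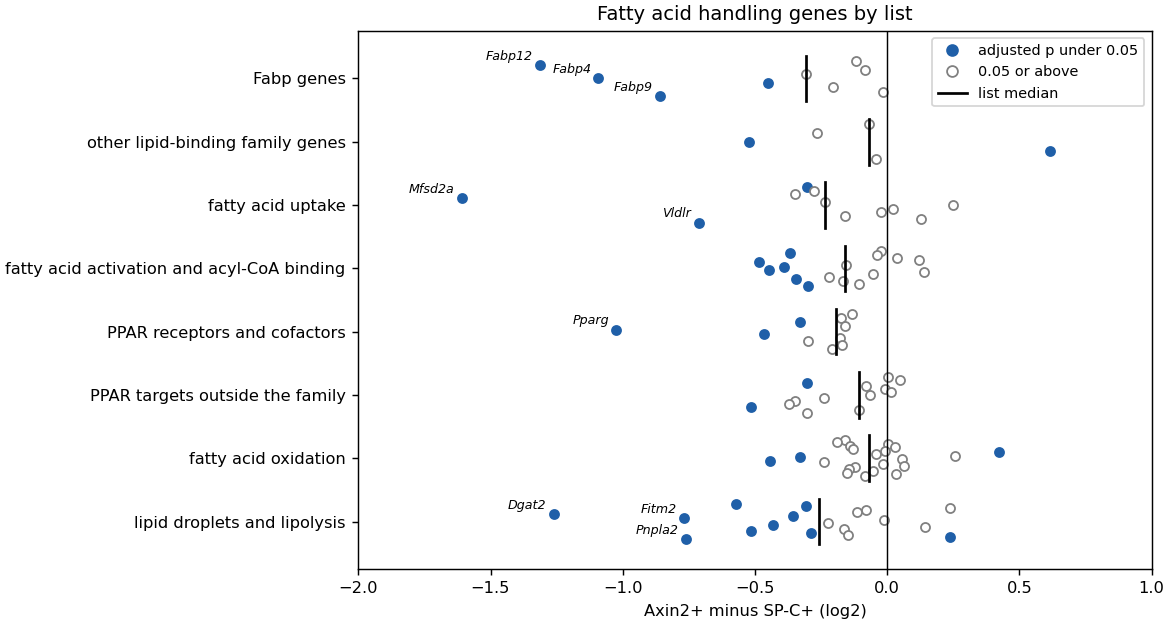
Axin2+ minus SP-C+ differences (log2) of every measured gene of the fatty acid lists, a point per gene, with filled points for an adjusted p under 0.05 in limma and a bar at the list median. The medians run from -0.31 for the Fabp genes to -0.07 for fatty acid oxidation and the other lipid-binding family genes, and Mfsd2a, Fabp12 and Dgat2 lie farthest to the left.

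The genes with array profiles nearest to Fabp12, Fabp4 and Fabp9, the called members with the largest differences, were found by the root mean square (RMS) difference over the 10 arrays after each gene was centred on its own mean. Predicted and unnamed genes and the members themselves were left out. Nearest to Fabp12 were Slc19a3, a thiamine transporter gene (RMS difference 0.16), Dgat2 (0.17) and Kyat3, a kynurenine aminotransferase gene (0.21). Nearest to Fabp4 were Mocs1, of molybdenum cofactor synthesis (0.24), Ciart, a circadian repressor gene (0.26), and Atp6v0d2, a proton pump subunit gene (0.27). SP-C+ array 1 was the highest array in Mocs1, Ciart and Atp6v0d2, as in Fabp4. With only SP-C+ arrays 1, 2 and 3, Atp6v0d2 did not pass (adjusted p = 0.0599 in limma). Nearest to Fabp9 were Epas1, which encodes the hypoxia-inducible factor HIF-2 alpha (0.10), Cyp4v3, a fatty acid hydroxylase gene (0.11), and Bcl2l15, of the Bcl-2 family (0.12). All of these were lower in Axin2+ arrays, by 0.76 to 1.43 on the log2 scale, and the shared difference between the groups makes up much of the likeness.

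**Figure D5:**
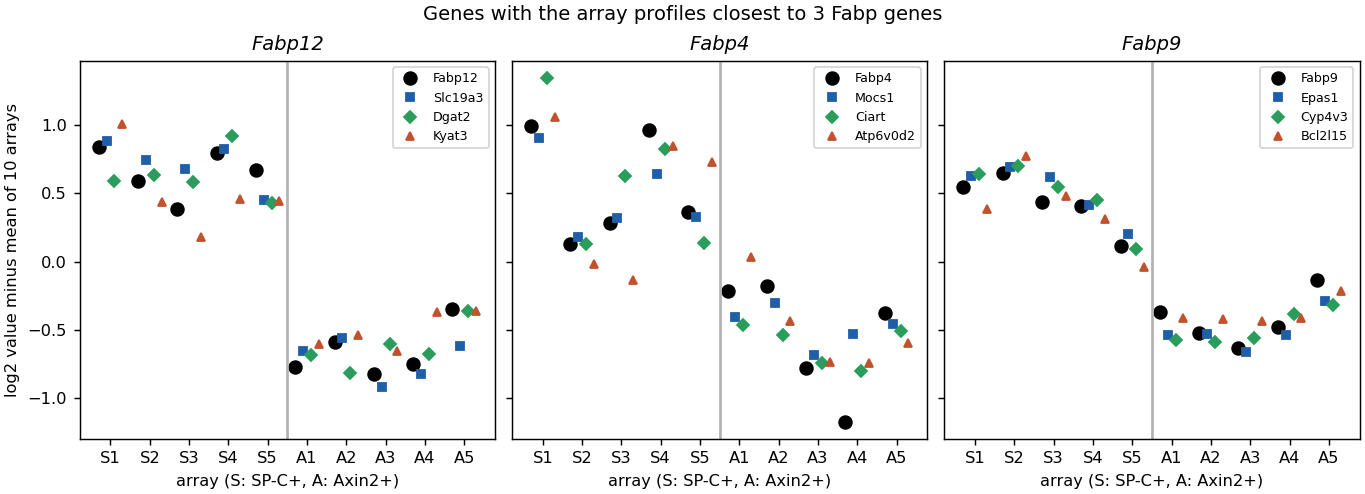
Log2 value of Fabp12, Fabp4 and Fabp9 and of the 3 genes nearest to each, minus the mean of the gene over the 10 arrays, for SP-C+ arrays S1 to S5 and Axin2+ arrays A1 to A5. In each panel every SP-C+ value of the Fabp gene is above every Axin2+ value, and S1 and S4 are highest for Fabp4.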

How the data were processed

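RNA of 10 sorted samples was hybridised to 1-colour Affymetrix arrays, from 100 ng of total RNA per sample per the labels' protocols. The authors deposited normalized log2 values for 41345 probe sets; log base 2 is inferred from their range. Per the submitters' processing notes, the tools included RMA, oligo and limma, with no version or role given. The platform annotation gave 1 symbol for 23521 probe sets, several for 1814 and none for 16010, which left 22180 genes, and probe sets with several symbols were not used.

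Groups came from the sample titles. Axin2+ was compared with SP-C+ in limma 3.58.1 (R 4.3.3) without covariates, on all genes, two-sided, with Benjamini-Hochberg adjustment and a call under 0.05. The members, lists and tests were chosen with earlier results of these data known. Named genes were all members, in each list the 2 called genes that differed most in each direction, fixed defining markers and the 3 nearest profiles of up to 3 members; exceptions are stated. Alternatives were centring on the median, quantile normalization, dropping dim genes, other uses of probe sets, an intensity trend, array weights, the replicate number as a block, leaving out each array and a stricter threshold. Added after the data were seen were fits with only SP-C+ arrays 1, 2 and 3 or 4 and 5 of that group, the genes beside the cluster, and the tests between adjacent genes. No scan dates were used, so array batches could not be examined, and the number of arrays limits the precision.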

Additional observations from a re-analysis of the deposited data

Results flagged for a closer look

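In 6 of 88 groups of 5 arrays examined, 1 array lay apart from the other four by more than Dixon's 95% critical value, which chance alone exceeds in about 1 of 20 groups. Among the members this was Fabp2, at 3.24 in Axin2+ array 1 against 3.59 in the nearest array. Axin2+ array 5 was high for Pparg (7.41, nearest 7.22) and Bcl2l15 (4.25, nearest 4.06) and low for Acot7 (10.01, nearest 10.07). Axin2+ array 3 was low for Vldlr (9.12, nearest 9.27), and Axin2+ array 1 was high for Ptprc (4.24, nearest 3.89).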

How the results depend on the processing

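Fabp4, Fabp5, Fabp9 and Fabp12 kept their direction and their call in every alternative in which they were tested; Fabp4 and Fabp9 were not tested above the 50th percentile, where 2 of 3 members were called. Their differences ran from -1.21 to -0.93 for Fabp4, -0.54 to -0.41 for Fabp5, -0.97 to -0.69 for Fabp9 and -1.41 to -1.26 for Fabp12. After median centring, which moved the median of all genes from -0.04 to -0.14, Fabp3 (-0.40) and Fabp6 (-0.30) also passed, and 5973 genes were called over all, 4412 lower and 1561 higher, against 1985 and 1909 without it. Without 1 array Fabp3 ran from -0.38 to -0.25 and Fabp7 from -0.0913 to 0.0406; Fabp7 was at 0.000748 with quantile normalization and 0.00329 with only SP-C+ arrays 1, 2 and 3. The cause of these changes was not tested.

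The stricter threshold of 0.01 left 2249 genes, 1 of 5 other lipid-binding family genes, 1 of 11 uptake, 3 of 16 activation, 1 of 13 PPAR target and 1 of 22 oxidation genes. Median centring gave 5 PPAR receptors and cofactors and 6 oxidation genes. With only SP-C+ arrays 4 and 5, called genes numbered 0 among other lipid-binding family genes, 1 in uptake and 1 among PPAR receptors and cofactors. They numbered 0 among PPAR targets and 5 in lipid droplets. Over all genes that fit called 2839, against 3894 with all arrays. The other lipid-binding family genes had 1 call above the 25th percentile, 0 above the 50th and 1 to 2 without 1 array. No pairing of samples follows from the replicate numbers (correlation of same-numbered deviations -0.23 to 0.01); the replicate block left 1 of 22 oxidation genes called and 4 of 9 members. Among other named genes, Pecam1 turned to 0.25 and Cdh5 to 0.26 and Adipoq to 0.0649 with only SP-C+ arrays 4 and 5, Cdh5 ran from -0.42 to 0.12 (without SP-C+ replicate 1) when 1 array was left out, and Adipoq was at 0.00513 without Axin2+ replicate 4; none of these passed.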
